A study of Homo sapiens with 3 samples.

Results

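The regions described here are the 6531 accessibility peaks on human chromosome 13 (chr13), out of 215590 peaks in all, chosen by position alone. In each cell their share of all peak counts was taken and set against the share of gene transcripts that came from the 788 chr13 genes. Cells of high and low share were then chosen by these same peak counts, so the difference in ranked peaks between them is a description, and only peaks held out of the ranking and gene transcripts carry information of their own.

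The cells came from 1 pool of NCI-H226, a human mesothelioma cell line that lacks the tumour suppressor NF2, and of CL3, a clone of it made resistant to GNE7883. GNE7883 is an inhibitor of the TEAD transcription factors, which carry the output of the Hippo pathway through their cofactors YAP and TAZ. Per the labels' protocols, resistance was selected at doses of 0.25 to 3 µM, and CL3 and parental cells, each with GNE7883 or with DMSO, were tagged with hashtag antibodies before they were mixed. The study's question is what sets the resistant clone apart from its sensitive parent. No hashtag is named in the matrix, which leaves the line and the treatment of each cell unknown. The cells are therefore 1 pooled sample, cells are not replicates, no p-value is given, and every interval is a 95% interval for counting error only.

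Human chr13 is an acrocentric chromosome: its short arm is made up largely of repeats, and its long arm alternates gene-rich stretches with broad gene-poor ones. It carries RB1, the retinoblastoma protein that restrains entry into the cell cycle, BRCA2, which directs repair of DNA breaks, and LATS2, a Hippo kinase that holds YAP back. In a single cell, the number of accessible fragments from a chromosome moves both with how many copies the cell holds and with how open its chromatin is, and counts within peaks alone do not separate these.

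The 8913 cells kept had medians of 1524 transcripts (unique molecular identifiers, UMIs; 1000 to 13064) and 4034 peak counts (1001 to 59374). A cell thus held a median of 83 counts in chr13 peaks and 20 UMIs from chr13 genes, which limits what a single cell shows. The mesothelial markers gave 11588 CPM (UMIs scaled to a common total of 10 to the power of 6) in cells of high chr13 share and 11764 CPM in cells of low share. The same markers made up 14779 CPM of the free RNA in near-empty barcodes, above their level in cells. Markers of immune, epithelial and endothelial cells were low when summed over each list. Immune markers gave 6.02 CPM in high-share and 9.97 CPM in low-share cells, with CD3E and MS4A1 at 0 UMIs. Epithelial and squamous markers gave 5.72 CPM in high-share and 3.60 CPM in low-share cells, with NKX2-1 at 0, and endothelial markers gave 16.6 CPM in high-share and 19.1 CPM in low-share cells. Fibroblast markers gave 104 CPM in high-share and 120 CPM in low-share cells, beside 108 CPM in free RNA. Of these 6, COL1A1 alone reached the floor for comparison, at 97.0 CPM in high-share and 107 CPM in low-share cells, and COL1A2 was at 0. Doublets were not removed.

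Among the chr13 peaks, 437 (6.69%) lay within 1 kb of a gene start, against 10.7% of all peaks, and these 437 held 25.5% of the chr13 counts. Counts were concentrated: 199 of the 6531 peaks held 25% of them, and the median peak had 66 counts over all cells, against 90 for all peaks. The 4 promoters below belong to chr13 genes named in the results, which do not rest on these loci. ANKRD10 and INTS6 lie under 2 of the 3 chr13 peaks with the most counts, FAM155A was the chr13 gene most raised in cells of high chr13 share, and TRPC4 was the chr13 gene that was lower by 1.5-fold or more. Each is 300 bases of RefSeq sequence, 5′ to 3′ on the gene's own strand, in build GRCh38.p14. All 4 genes lie on the minus strand. Capitals mark GC boxes (GGGCGG on either strand) and an E-box (CACGTG), where present; adjoining matches run together.
ANKRD10, chr13:110915020-110915319: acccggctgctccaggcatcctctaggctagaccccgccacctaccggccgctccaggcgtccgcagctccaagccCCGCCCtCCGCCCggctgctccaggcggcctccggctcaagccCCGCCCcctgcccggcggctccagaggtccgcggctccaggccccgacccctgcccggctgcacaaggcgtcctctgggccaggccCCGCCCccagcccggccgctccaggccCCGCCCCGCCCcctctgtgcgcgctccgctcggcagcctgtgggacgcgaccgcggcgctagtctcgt
INTS6, chr13:51452987-51453286: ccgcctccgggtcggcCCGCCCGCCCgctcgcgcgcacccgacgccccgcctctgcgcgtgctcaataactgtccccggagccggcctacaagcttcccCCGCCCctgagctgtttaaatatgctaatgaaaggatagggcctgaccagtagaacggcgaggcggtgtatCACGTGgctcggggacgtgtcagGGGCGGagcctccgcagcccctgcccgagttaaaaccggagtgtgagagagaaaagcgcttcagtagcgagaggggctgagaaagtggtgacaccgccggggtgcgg
FAM155A, listed by RefSeq as NALF1, chr13:107867447-107867746: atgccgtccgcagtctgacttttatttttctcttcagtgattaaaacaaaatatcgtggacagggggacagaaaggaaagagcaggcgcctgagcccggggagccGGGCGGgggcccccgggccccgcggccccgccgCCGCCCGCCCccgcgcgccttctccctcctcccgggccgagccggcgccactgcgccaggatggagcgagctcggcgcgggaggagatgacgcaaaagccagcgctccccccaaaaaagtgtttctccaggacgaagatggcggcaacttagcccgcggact
TRPC4, chr13:37869723-37870022: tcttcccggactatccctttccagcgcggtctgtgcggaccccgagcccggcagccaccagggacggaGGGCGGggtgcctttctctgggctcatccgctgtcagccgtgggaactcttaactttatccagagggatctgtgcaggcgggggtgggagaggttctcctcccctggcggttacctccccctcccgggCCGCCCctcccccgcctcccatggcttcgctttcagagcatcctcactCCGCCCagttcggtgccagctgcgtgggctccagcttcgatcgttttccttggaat

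The ANKRD10 promoter held 6 GC boxes, INTS6 had 4 and 1 E-box, and FAM155A and TRPC4 had 3 each. GC boxes occurred in 45.0% of 35116 promoters of this length, in 35.2% of the 892 chr13 promoters and in 56.0% of the 411 chr13 promoters that overlapped a peak. The E-box occurred in 7.26% of all promoters. None of the 4 held the letters of an AP-1 motif (TGANTCA), a TEAD motif (GGAATG) or an ETS motif (CCGGAAG), each searched on both strands and found in 7.71%, 14.0% and 10.3% of all promoters. The GC box and E-box letters were picked after these 4 sequences had been seen. A match describes letters only.

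The chr13 share of peak counts varied more between cells than counting allows. Over all cells chr13 took 2.10% of peak counts, and the share per cell had a median of 2.07%, with 1.40% at the 5th and 2.90% at the 95th percentile. The SD over cells was 0.463 percentage points, against 0.366 from counting alone. Splitting chr13 into alternate 1 Mb blocks gave 2 readings of each cell that share no peak, and their covariance put the spread beyond counting at 13.6% of the mean. That ranked 3 among 23 chromosomes, below chr22 (17.3%) and chr18 (13.8%), with a median of 8.38% over the 22 others.

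The cells with the most counts show the shape of this spread. In the 1794 cells with at least 8000 peak counts, the SD was 0.408 percentage points against 0.190 from counting. Shares of at least 1.5 times the median occurred in 45 of them (2.51%), where counting alone gives 0.000392%, and shares of the median divided by 1.5 or less occurred in 29 (1.62%), against 0.00655%. One cell almost lacked chr13 peak counts, with 2 among 15321. It was also low in chr13 transcripts, with 7 chr13 UMIs among 2683, or 0.261% of its UMIs, against a median of 1.25% in these 1794 cells. The next lowest cell had 14 chr13 counts among 9589, with 24 chr13 UMIs among 1462 (1.64%), so its 2 readouts went apart.

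**Figure D1:**
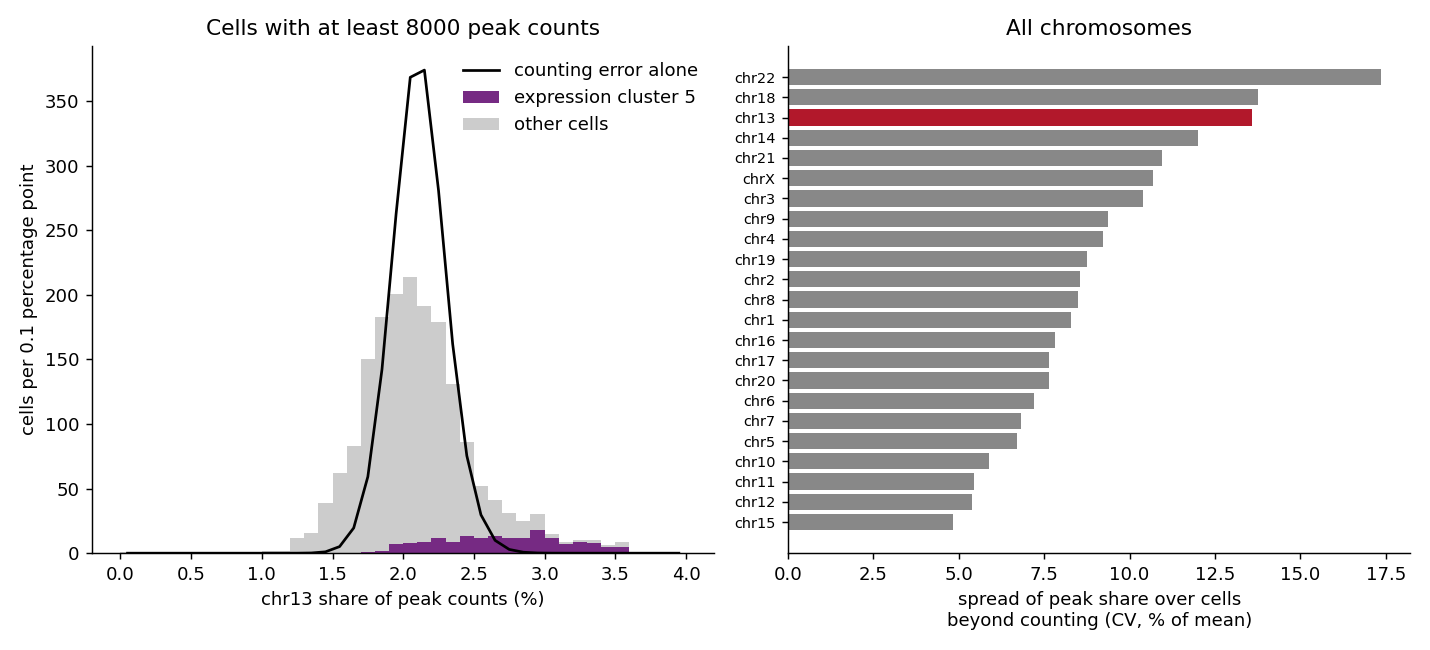
Left, histogram of the chr13 share of peak counts in the 1794 cells with at least 8000 peak counts (purple, expression cluster 5; grey, other cells, stacked), with the number that counting error alone would give as a line; the cells spread wider than the line on both sides, and cluster 5 fills much of the upper tail. Right, spread of the peak share over cells beyond counting, as a coefficient of variation in percent, for each chromosome; chr13 (red, 13.6%) follows chr22 and chr18.

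Chromosome 13 transcripts followed the peaks in the same cells. The chr13 peak share and the chr13 UMI share of a cell correlated with a Spearman rho of 0.172 and a Pearson r of 0.194 over 8913 cells, a weak relation between 2 sparse counts that is given as a description. Set against the genes of each other chromosome, the chr13 peak share gave rho between −0.105 (chr14) and 0.0870 (chr22). The 22 other chromosomes gave 0.0512 to 0.303 with their own genes.

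Cells were then grouped by their chr13 peak share into quintiles within deciles of peak count, so that depth did not set the groups. The high group and the low group hold 1780 cells each, with medians of 4034 and 4032 peak counts. Their chr13 peak shares, 2.71% and 1.57%, differ by construction. The lowest share in the high group was 2.37 to 2.58%, depending on the decile, and the highest share below it 2.37 to 2.58%; the highest share in the low group was 1.53 to 1.80%, and the lowest share above it 1.54 to 1.80%. Other measures also differed: median UMIs were 1516 in the high and 1692 in the low group, mitochondrial UMIs 14.1% and 13.9%, and counts in peaks at gene starts 33.9% and 35.1% of all peak counts. With cells ranked within deciles of that last share, the held-out chr13 ratio described next was 1.34 and the chr13 UMI ratio 1.18; with at most 10% mitochondrial UMIs they were 1.22 and 1.16, and with both depth minimums raised to 2000 they were 1.47 and 1.28. Groups matched on UMIs were not tested.

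Peaks that had not ranked the cells moved with those that had. With cells ranked on 1 set of blocks and read in the other, chr13 took 2.44% of peak counts in high-share cells and 1.84% in low-share cells, a ratio of 1.33 (1.32 to 1.35). The same procedure gave 1.09 to 1.38 on the 22 other chromosomes, with a median of 1.19. The chr13 UMI share was 1.41% in the highest quintile, 1.31%, 1.29% and 1.24% in the next 3, and 1.20% in the lowest. High over low, that is a ratio of 1.18 (1.16 to 1.19). Each of the 22 other chromosomes, with cells ranked on its own peaks, gave 1.05 to 1.26 for its own UMIs, with a median of 1.10. In 412679 near-empty barcodes of fewer than 100 UMIs, which hold free RNA, chr13 genes made up 1.24% of UMIs, between the 2 groups.

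Of 1045 chr13 peaks with at least 100 held-out counts over both groups, 183 were at least 1.5-fold higher in high-share cells with an interval that excludes 1, and 6 were lower. Among all 49588 peaks compared in this way, 3.43% were higher and 3.98% lower. The median log2 ratio of the chr13 peaks was 0.33, with 85.3% above 0, against −0.03 and 46.7% for all peaks. It was 0.32 for chr13 peaks at gene starts and 0.34 for those farther away, so both classes moved. The 10 chr13 peaks with the most counts lie within 1 kb of the starts of ANKRD10, WDFY2, INTS6, CARS2, ING1, AL442067.3, TSC22D1, CAB39L, DCUN1D2 and DLEU2, and none of them passed the 1.5-fold rule. The ANKRD10 peak (chr13:110914847-110915752) had 872 held-out counts in high-share and 706 in low-share cells, a ratio of 1.24 (1.07 to 1.43), with counts in 19.2% of all cells. The INTS6 peak (chr13:51452852-51453735) had 643 and 487, a ratio of 1.31 (1.10 to 1.55). The peak near AL442067.3 was the one of the 10 with a ratio below 1, at 0.927 (0.778 to 1.10).

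Of the 261 chr13 peaks compared at gene starts, 9.58% were higher, against 20.2% of the 784 farther away. Peaks outside chr13 also passed more often away from gene starts, with 1.21% higher at gene starts and 3.98% farther away. The highest ratio, 6.31 (3.27 to 13.5), belonged to a peak 104150 bases from the start of FGF14 (chr13:102020795-102021715; 132 held-out counts in high-share and 21 in low-share cells). FGF14 itself, a channel-binding member of the fibroblast growth factor family, had 14 UMIs in all cells. Of the 6 chr13 peaks that were lower, the one that moved most lies 3048 bases from the start of CLDN10-AS1 (30 against 101 held-out counts, ratio 0.294, 0.154 to 0.532). The next lie within 1 kb of the starts of AL589745.1, at 33 against 73 counts (0.454, 0.237 to 0.832), and of LINC00565, at 88 against 178 (0.490, 0.333 to 0.711). Another lies 80719 bases from the start of TRPC4, at 46 against 88 counts (0.518, 0.299 to 0.876).

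All of chr13 took part. In each 10 Mb window the cells were ranked on the peaks of the other windows, and the held-out ratio ran between 1.21 (1.18 to 1.25) in window 2 (20 to 30 Mb) and 1.70 (1.63 to 1.77) in window 6 (60 to 70 Mb), with the interval above 1 in all 11 windows. Window 8 (80 to 90 Mb) followed at 1.62, then window 5 at 1.49 and window 7 at 1.43. Windows 6 and 8 are the poorest in gene starts, with 2.61% and 3.07% of their peaks there, and windows 1, 11 and 2, at 16.1%, 13.5% and 10.3%, gave 1.26, 1.22 and 1.21. Over the 11 windows the ratio and the share of peaks at gene starts had a Spearman rho of −0.909, given as a description. In 272 windows on other chromosomes with at least 20000 peak counts over both groups, the high and low groups as ranked on all of chr13 gave ratios of 0.789 to 1.33. That range takes in the ratios of windows 1 to 4 and 11. Whether the relation to gene starts also holds on other chromosomes was not tested.

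Gene UMIs by window, between the high and low groups as ranked on all of chr13, followed that order only loosely, with a Spearman rho of 0.405 over the 8 windows with at least 5 genes compared, given as a description. The ratio was highest in window 10 (100 to 110 Mb), at 1.36 (1.30 to 1.43), the window that holds FAM155A, and lowest among the windows with compared genes in window 3, at 1.07 (1.03 to 1.11). Window 6, first for peaks, gave 1.12 (1.05 to 1.20). Window 8 had 47 UMIs in high-share and 54 in low-share cells, too few to place its ratio of 0.946 (0.626 to 1.43).

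**Figure D2:**
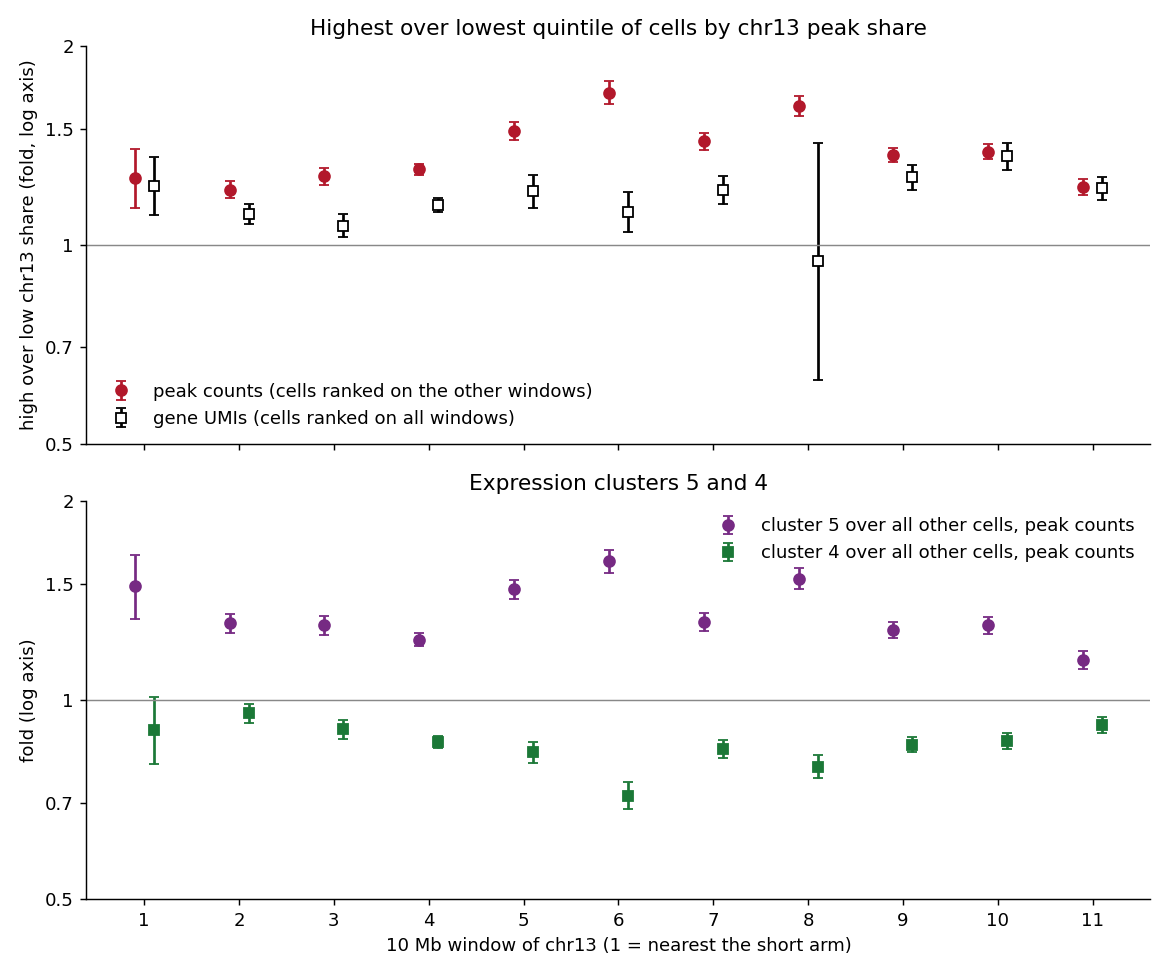
Top, ratio of high-share over low-share cells (log axis) in each 10 Mb window of chr13, for peak counts with cells ranked on the other windows (red) and for gene UMIs with cells ranked on all windows (black squares). Bottom, peak counts of expression clusters 5 and 4, each over all other cells; bars are 95% counting intervals. Peak ratios lie above 1 in all 11 windows and peak in windows 6 and 8, where cluster 5 is highest and cluster 4 lowest.

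Chromosome 13 genes were raised broadly and by little. Genes enter this comparison with at least 100 UMIs over both groups and at least 20 CPM in the higher, which 134 of the 788 chr13 genes reached; 477 had any UMI and 128 reached 20 CPM over all cells. Their median log2 ratio, high over low, was 0.24, against −0.01 over all 6844 genes compared, and 82.8% were above 0, against 48.5%. The genes of the 22 other chromosomes, with cells ranked on their own peaks, had medians of 0.08 to 0.39, the middle one 0.16. The interval lay above 1 for 57 chr13 genes (42.5%), against 9.85% of all genes, and below 1 for 3. By the rule of 1.5-fold with an interval that excludes 1, 8 chr13 genes were higher (5.97%) and 1 lower, against 1.87% higher and 1.48% lower among all genes. Among the 8, EFNB2 (17.7 CPM over all cells) and OBI1 (19.9 CPM) entered the comparison through the high group only.

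FAM155A, an auxiliary subunit of the NALCN sodium leak channel, gave 349 CPM in high-share and 143 CPM in low-share cells, a ratio of 2.44 (2.20 to 2.71). The 77 peaks in its gene body gave a held-out ratio of 1.44 (1.32 to 1.56), below that of its transcript. The peak at its promoter gave 1.55 (0.955 to 2.57), with an interval that includes 1. MBNL2, a regulator of alternative splicing, gave 110 and 64.8 CPM (1.69, 1.43 to 2.00). DOCK9, an activator of the small GTPase CDC42, gave 62.6 and 39.1 CPM (1.60, 1.29 to 2.00). The other 5 were less abundant, with ratios between 1.51 and 1.67: OBI1, a ubiquitin ligase of replication origins; MZT1, of the gamma-tubulin ring; the noncoding RNA DLEU1; COG6, of a Golgi tethering complex; and EFNB2, a ligand of Eph receptors. TRPC4, a cation channel, was lower in high-share cells, at 48.5 CPM against 96.7 CPM in low-share cells (0.501, 0.413 to 0.606), while the 17 peaks in its gene body gave 0.930 (0.766 to 1.13). The peak at the TRPC4 promoter gave 0.776 (0.494 to 1.21), also with an interval that includes 1.

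The 10 most abundant chr13 genes lay mostly above 1 and, apart from FAM155A, under the 1.5-fold rule. TPT1, the translationally controlled tumour protein, gave 1868 and 1665 CPM in high-share and low-share cells (1.12, 1.08 to 1.16). RPL21, a protein of the large ribosomal subunit, gave 850 and 738 CPM (1.15, 1.09 to 1.22). GPC6, a cell surface proteoglycan, reached 1.30 (1.20 to 1.42), and COL4A2 and COL4A1, the paired basement membrane collagens transcribed from 1 shared promoter region, 1.25 (1.14 to 1.37) and 1.13 (1.01 to 1.27). RBM26 gave 1.16 (1.04 to 1.29) and DIAPH3, an actin-nucleating formin, 1.08 (1.00 to 1.16). HMGB1, a chromatin protein, stood at 1.01 (0.929 to 1.09), and the noncoding AL161431.1 was on the low side, at 0.883 (0.788 to 0.989).

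The chr13 genes were also read by role. Beside these lists, 82.8% of all 134 chr13 genes compared lay above 1, 5.97% were called higher and the median log2 ratio was 0.24. Of 8 Hippo and MAPK regulators, 2 were compared: LATS2 gave 58.7 and 57.1 CPM in high-share and low-share cells (1.03, 0.842 to 1.26), though the 9 peaks in its body gave 1.48 (1.24 to 1.77), and IRS2, an insulin receptor substrate, gave 44.3 and 33.0 CPM (1.34, 1.05 to 1.72). SPRY2, which damps receptor signalling, was too low to compare at 2.89 CPM over all cells.

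Of 17 tumour suppressor, cell cycle and repair genes, 11 were compared, 8 lay above 1, none passed the rule and the median log2 ratio was 0.11. RB1 gave 69.3 and 62.9 CPM (1.10, 0.913 to 1.33) and BRCA2 22.9 and 31.3 CPM (0.731, 0.539 to 0.986). ERCC5, a repair endonuclease, reached 1.44, CDK8 of the Mediator kinase module 1.42, and CUL4A, a ubiquitin ligase scaffold, 1.36. PDS5B, TFDP1, RFC3, CDC16 and CKAP2 lay between 0.961 and 1.15, each with an interval that includes 1.

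Of 20 genes listed as transcription factors and cofactors, 9 were compared, 8 lay above 1 and none passed the rule, with a median of 0.24. The 9 include TBC1D4, which is not a transcription factor and gave 1.14 (0.802 to 1.61). The zinc finger proteins KLF12 and ZMYM2 gave 1.47 each, the ETS factor ELF1 1.29 and TSC22D1 1.27, all with intervals above 1, while KLF5 gave 1.03 (0.841 to 1.26), GTF2F2 1.10 and SUPT20H 1.18, with intervals that include 1. Among the members at 0 UMIs were the developmental factors SOX1, SOX21, POU4F1, CDX2, PDX1 and GSX1. Of 18 genes listed under matrix and adhesion 6 were compared, and 5 lay above 1, with a median of 0.25. DOCK9, the CDC42 activator, was the one that passed the rule. LMO7 gave 1.04 (0.842 to 1.28) and ITGBL1 0.929 (0.691 to 1.25). Of 13 genes for ribosome, chromatin and noncoding RNA, all 9 compared lay above 1 and DLEU1 passed, with a median of 0.20; DLEU2, the host transcript of a miRNA cluster, gave 1.30 (1.15 to 1.47), UCHL3 1.24, and PARP4, SAP18 and MYCBP2 1.11 to 1.16 with intervals that include 1.

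Across the genome the genes that differed most between the groups were not chr13 genes. ADGRL3, an adhesion receptor of the latrophilin family, gave 153 CPM in high-share and 26.3 CPM in low-share cells (5.82, 4.67 to 7.33). PPP2R2B, a regulatory subunit of protein phosphatase 2A, gave 72.3 and 15.0 CPM (4.83, 3.58 to 6.62), and ITGB8, an integrin that activates latent TGF-beta, 72.9 and 16.9 CPM (4.31, 3.24 to 5.81). AC138305.1, the cadherin CDH12, LONRF2, the teneurin TENM4, STON2, AC005580.1 and the receptor phosphatase PTPRQ followed at 2.49 to 2.96. Of these, AC138305.1, CDH12, LONRF2 and AC005580.1 were under 20 CPM over all cells and entered through the high group. Without cluster 5, an expression cluster described below, PPP2R2B gave 2.26, ITGB8 1.91 and PTPRQ 1.42, which ends the call of PTPRQ, and AC138305.1, CDH12, LONRF2 and AC005580.1 fell under the floor for comparison. On the low side, ZNF804A gave 116 CPM in high-share and 239 CPM in low-share cells (0.487), CYP24A1, which breaks down vitamin D, 81.6 and 157 CPM (0.520), and CLSTN2, a synaptic adhesion protein, 27.4 and 55.4 CPM (0.495). P2RX7, AC105402.3, TRPC4, SLC36A4, CDKN1C, STRIP2 and AC008691.1 lay between 0.487 and 0.525. Of these, P2RX7, CDKN1C and AC008691.1 were under 20 CPM over all cells and entered through the low group. Without cluster 5, all the low-side genes named here still passed the 1.5-fold rule. With cluster 4, also described below, left out as well, ZNF804A (0.680), CYP24A1 (0.820), CLSTN2 (0.7145) and TRPC4 (0.764) did not. CDKN1C then fell under the floor for comparison, and the others still passed.

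**Figure D3:**
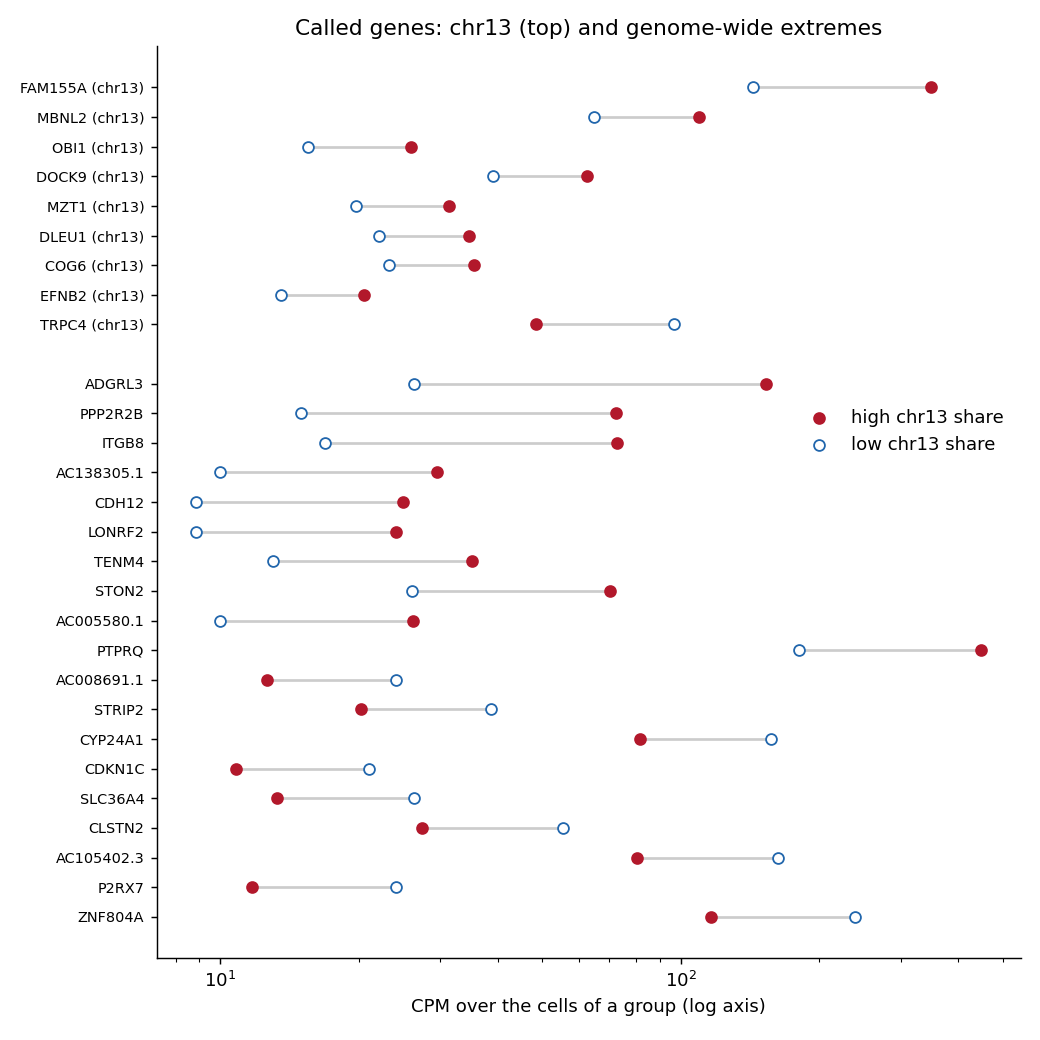
CPM (log axis) of genes past the 1.5-fold rule in high-share cells (red) and low-share cells (open blue): above, the 9 chr13 genes, and below, the genes elsewhere among the 10 with the highest and the 10 with the lowest ratio. FAM155A leads the chr13 genes at 349 against 143 CPM, and ADGRL3 leads the rest at 153 against 26.3 CPM.

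At most 2 members of each list for another programme passed the 1.5-fold rule, though several lists lay to one side of 1, beside a median of −0.01 over all genes. Among all 6844 genes compared, 1.87% were called higher and 1.48% lower, and 48.5% lay above 1. S-phase genes had a median log2 ratio of −0.12 with 0 of 22 compared higher and 2 lower (FEN1 0.601, CDC6 0.664). FEN1, at 18.9 CPM over all cells, entered through the low group. G2/M genes had −0.16 with 6 of 39 above 1 and 0 called, TTK at 1.36 (1.03 to 1.82) being the member farthest from 1. YAP/TEAD targets had a median of −0.09 with 1 of 17 lower, NT5E at 0.631; AXL gave 0.704 and CCN1 0.793. MAPK output genes had −0.10 with 1 of 7 higher, the Eph receptor EPHA4 at 1.57 (1.29 to 1.90). Interferon response genes had 0.17, all 16 above 0 and 1 called, MX2 at 1.57 (1.13 to 2.20). NF-kB and cytokine genes had −0.26, farther from 0 than the chr13 median of 0.24, with 2 of 11 above 1 and 1 called lower, LCN2 at 0.632 (0.453 to 0.874). The 11 mesothelial markers had −0.01 with 0 called.

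Other chromosomes moved with chr13 in these groups. Peak counts on chr14 were lower in high-share cells (ratio 0.858, 0.852 to 0.865), as were those on chrX (0.894) and chr21 (0.895), and chr22 was higher (1.13, 1.12 to 1.15). On these chromosomes the genes went with the peaks. The median log2 ratio was −0.15 on chr14, with 22.4% of 219 genes above 0, −0.10 on chrX and −0.12 on chr21. It was 0.16 on chr22, with 75.5% of 102 above 0. That did not hold throughout: chr18 peaks gave 1.03 (1.02 to 1.04), but its gene median was −0.06, with 33.7% of 104 above 0. Peak ratios between these groups were taken against peak counts outside chr13, so a higher chr13 peak share does not by itself lower them. CPM is scaled to all UMIs, so a higher chr13 UMI share lowers the CPM of the rest slightly.

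**Figure D4:**
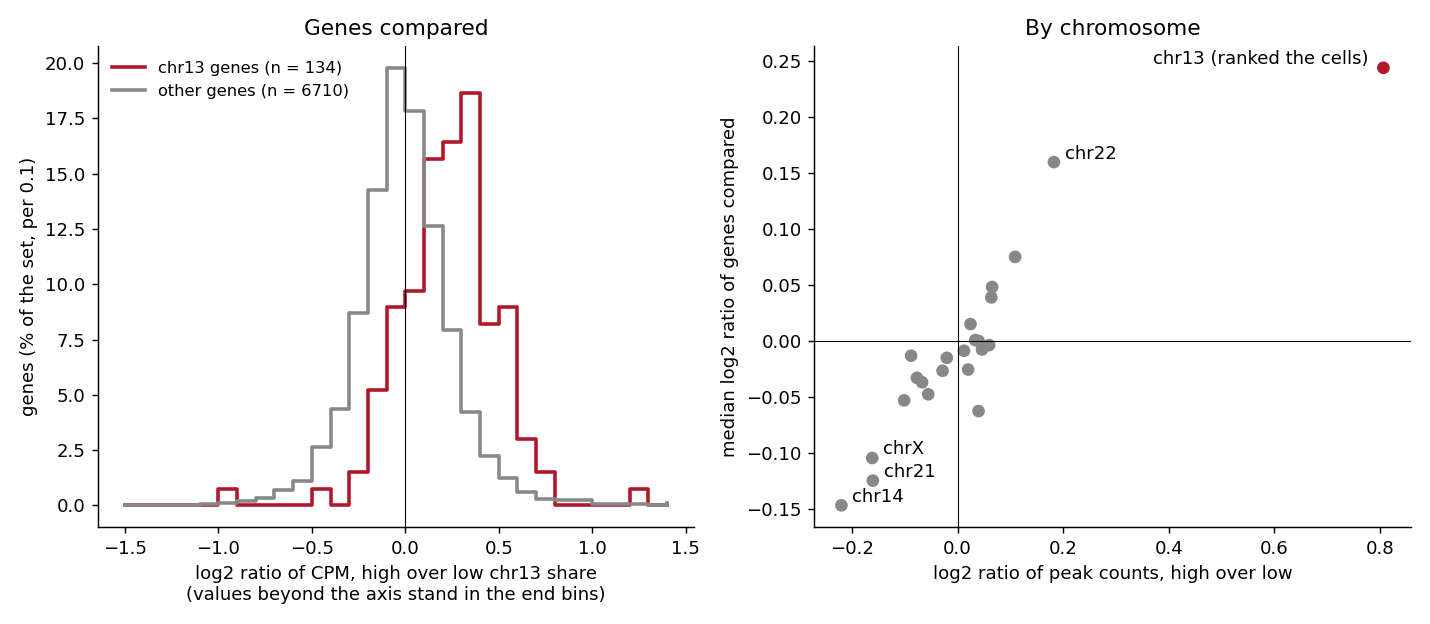
Left, share of genes in each log2 bin of the high-share over low-share CPM ratio, for the 134 chr13 genes (red) and all other genes compared (grey); the chr13 curve is shifted to the right as a whole. Right, each chromosome's log2 ratio of peak counts against the median log2 ratio of its genes in the same groups; chr13 ranked the cells, chr22 lies above 0 and chr14, chr21 and chrX below on both axes.

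The chr13 share also differed between groups of cells drawn without it. Clustering on expression with the chr13 genes left out gave 7 clusters, numbered by size and not named. Cluster 5, with 405 cells and led by PPP2R2B, ADGRL3, ITGB8 and CDH12, had the highest chr13 peak share, 2.69% (2.66 to 2.71). Cluster 4, with 631 cells and OSCAR, CLDN11 and CYP24A1 among its leading genes, had the lowest, 1.85% (1.83 to 1.86). Cluster 5 over cluster 4, the ratio was 1.47 (1.45 to 1.49) for peaks and 1.35 (1.33 to 1.38) for chr13 UMIs. Cluster 6, led by CXCL1, CYP17A1 and LCN2, had 1.90%; cluster 3, led by the interferon-induced RSAD2 and OASL, had 2.05%; clusters 1 and 2, which hold 41.4% and 33.0% of the cells, had 2.11% and 2.08%; and cluster 7, led by IGFBP5 and INHBA, had 2.18%. The chr13 UMI share kept cluster 5 highest, at 1.58%, and put cluster 6 lowest, at 1.11%, below cluster 4 at 1.17%.

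Against all other cells, cluster 5 had 1.31-fold (1.30 to 1.33) the chr13 peak counts and 1.25-fold (1.22 to 1.27) the chr13 UMIs. Of 137 chr13 genes compared there, 39 were higher and 5 lower, where 10.1% of all genes were higher and 9.52% lower; the chr13 median log2 ratio was 0.34 against 0.01. Of 2348 chr13 peaks compared, 381 (16.2%) were higher and 50 (2.13%) lower, against 6.23% and 7.59% of all peaks. The chr13 genes raised most were MTRF1, a mitochondrial release factor (30.4 CPM in cluster 5 against 8.63 CPM in other cells, 3.52-fold, 2.27 to 5.29), FAM155A (581 against 203 CPM, 2.87-fold, 2.62 to 3.14), ZMYM2 (2.16-fold) and INTS6, an Integrator subunit (179 against 84.6 CPM, 2.12-fold, 1.80 to 2.49). MTRF1 reached 20 CPM only in cluster 5. The 5 that were lower ran far against the chromosome: ITGBL1 at 2.10 against 32.2 CPM (2 UMIs in cluster 5; ratio 0.0652, 0.00788 to 0.237), TRPC4 at 9.44 against 73.9 CPM (0.128, 0.0583 to 0.243), AL161431.1, ENOX1 and LMO7. All 11 windows were higher in cluster 5, between 1.15 (window 11) and 1.62 (window 6). The genes of cluster 4 mirrored 2 of these: TRPC4 stood at 162 CPM in cluster 4 against 58.4 CPM in other cells (2.77-fold), and FAM155A at 101 against 240 CPM (0.421, 0.362 to 0.487). ANKRD10 was lower there too, at 56.3 against 92.3 CPM (0.610, 0.497 to 0.744).

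Cluster 5 differed on other chromosomes as well. Its peak counts were lower than those of other cells on chr14 (0.671, 0.663 to 0.679), chrX (0.767) and chr21 (0.793) and higher on chr22 (1.18), the order seen between high-share and low-share cells. It supplied 15.7% of the high group and 0.337% of the low group, while cluster 4 supplied 2.36% and 15.4%.

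The spread was not that of 1 cluster. Inside cluster 5 the chr13 share still ran widely: of its 175 cells with at least 8000 peak counts, the 10th percentile was 2.09%, the median 2.75% and the 90th percentile 3.31%, and 72.6% reached 2.4%, against 25.5% of 98 in cluster 7, 13.4% of 649 in cluster 1, 12.5% of 248 in cluster 2 and 3.98% of those in cluster 4. Within each of the 7 clusters, ranking cells on 1 set of blocks gave held-out chr13 ratios of 1.17 to 1.41 and chr13 UMI ratios of 1.09 to 1.19. Leaving out cluster 5, the ratio of high to low share was 1.25 (1.24 to 1.26) for held-out peaks and 1.13 (1.12 to 1.15) for chr13 UMIs, the chr13 gene median was 0.16, and 6 chr13 genes were higher and 2 lower, where 0.968% and 0.85% of all genes were. Of the 8 called over all cells, FAM155A, MBNL2, OBI1 and COG6 still passed the rule, while DOCK9 (1.40), DLEU1 (1.39) and MZT1, just under the limit, did not and EFNB2 was too low to compare. FAM155A then gave 1.95 (1.74 to 2.19), TRPC4 0.615 (0.511 to 0.739) and ADGRL3 2.60 (2.01 to 3.39). Without clusters 5 and 4 the ratios were 1.23 for peaks and 1.11 for chr13 UMIs, with a gene median of 0.15; FAM155A gave 1.55 (1.38 to 1.73), while TRPC4, at 0.764, and MBNL2, at 1.40, no longer passed the rule.

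**Figure D5:**
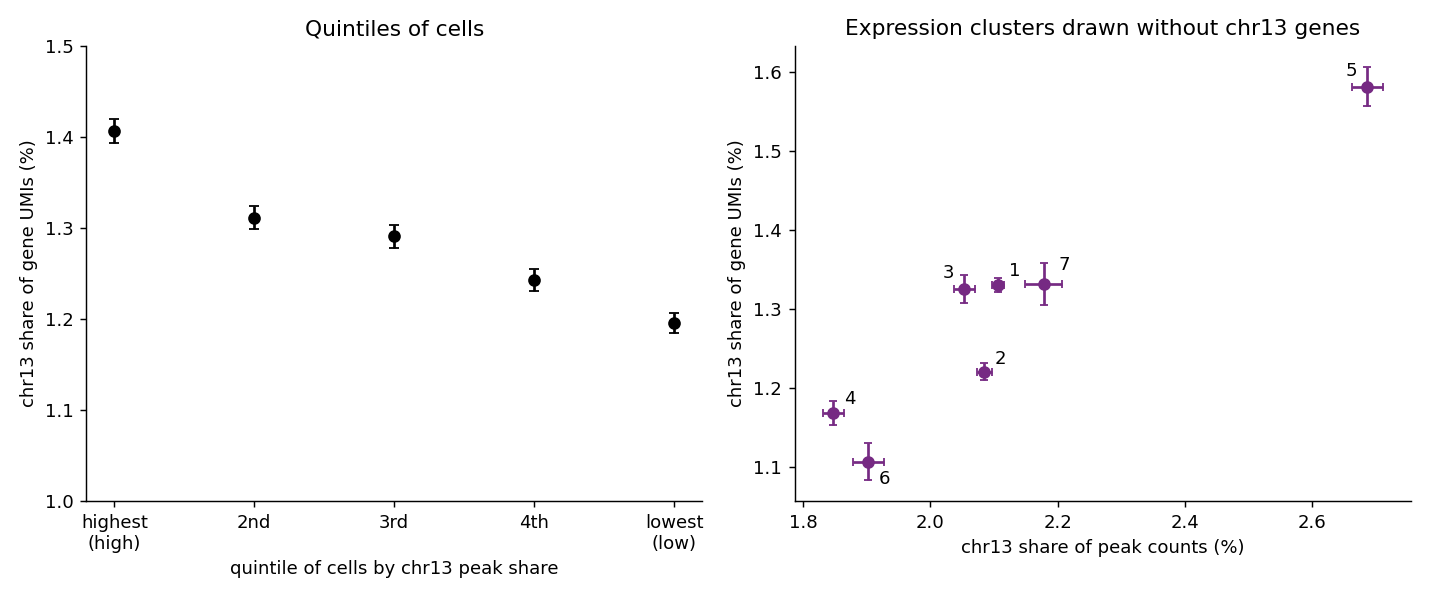
Left, chr13 share of gene UMIs in quintiles of cells ordered by chr13 peak share, highest at the left; it falls at each step, with 1.41% in the highest and 1.20% in the lowest. Right, chr13 share of peak counts against chr13 share of UMIs in the 7 expression clusters drawn without chr13 genes; cluster 5 lies apart at 2.69% and 1.58%, and clusters 4 and 6 lie lowest on both axes. Bars are 95% counting intervals.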

How the data were processed

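Gene expression and chromatin accessibility were measured in the same nuclei with the 10x Multiome assay. The authors deposited 1 matrix of whole-number counts, per the file headers not normalized and not filtered to cells: UMI counts for 36601 genes and cut-site counts for 215590 peaks in 651860 barcodes. Per the submitters' processing notes, the build was GRCh38.p10 and the tools included ArchR 1.0.3, MACS2, Cell Ranger ARC 2.0.0 and Cell Ranger 2.0.0; their roles were not named. Since 87.9% of peak entries were even, intervals take every 2 counts as 1 event.

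A barcode counted as a cell if it held 1000 or more UMIs and 1000 or more peak counts, with no more than 20% mitochondrial UMIs: of 11130 barcodes past both minimums, 2217 exceeded the mitochondrial limit. They held 30.4% of all UMIs and 41.1% of all peak counts. Peaks within 1 kb of a gene start in the feature table count as gene-start peaks. UMIs were summed over a group and scaled to CPM; intervals are exact at 95% (conditional binomial for a ratio, Clopper-Pearson for a share), not adjusted for the number compared. A gene low over all cells can enter through the group where it is high. Peaks were compared in readings that had not ranked the cells, at 100 or more counts. Clusters used scanpy 1.11.5 and leidenalg 0.10.2 with 2000 variable genes outside chr13, 30 components, 15 neighbours, Jaccard weights, resolution 0.5 and seed 0. Scripts were tested on simulated data.

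Named are the 10 chr13 genes and 10 chr13 peaks with the most counts, the role-list members at 20 CPM or more, the 10 highest and 10 lowest called genes, called chr13 genes and up to 4 members per list that differ most. The peaks, lists and rules were chosen with earlier results of these data known. Of 788 chr13 genes, 551 matched RefSeq by Ensembl identifier or, where that failed, by name or synonym. Of these, 535 had a start in the feature table within 1 kb of the RefSeq gene in GRCh38.p14. Counting does not part overlapping or antisense genes here, as no source names a strand setting. Peak sequences were not read because no genome was used.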

Additional observations from a re-analysis of the deposited data

How the results depend on the processing

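No paired analysis was possible because all cells form 1 pooled sample and no test was made. Of 18 alternatives, 2 (ranking within deciles of the share of peak counts at gene starts, and ranking within expression clusters) were chosen after seeing the data. The held-out chr13 ratio stayed above 1 in all 11 alternatives that recompute it, at 1.22 to 1.49. So did the chr13 UMI ratio in 16, at 1.11 to 1.28. The median log2 ratio of chr13 genes stayed above 0 in 16, at 0.14 to 0.35. Each window's ratio stayed above 1, and 9 to 11 of the 11 windows kept their interval above 1. The number of genes called higher over the whole genome stayed within 1.5-fold of 128 in 13 of 16 alternatives, with the exceptions given below. Values below are named as in the report, with high-share over low-share cells throughout, and a cause is given for none of them, since none was tested.

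With at least 2000 UMIs and 2000 peak counts (2307 cells), the spread beyond counting was 17.7% and the Spearman rho 0.313. The held-out ratio was then 1.47, the UMI ratio 1.28 and the chr13 gene median 0.35. In those cells 184 genes were called higher and 158 lower, 25 and 1 of them on chr13. With at most 10% mitochondrial UMIs (1592 cells), the chr13 share was 2.08%, rho 0.148, the held-out ratio 1.22 and the chr13 gene median 0.15; 35 genes were called higher and 46 lower, 2 and 0 of them on chr13. Those cells gave 2 expression clusters, with a ratio of 1.02 between them. CDH12 (0.922), CDKN1C (1.61), AC008691.1 (1.30) and AL161431.1 (1.02) reversed. DOCK9 (1.20), OBI1 (1.15), MBNL2 (1.23), MZT1 (1.42) and TRPC4 (0.776) no longer reached 1.5-fold. Neither did AC005580.1 (1.02), P2RX7 (0.864), CLSTN2 (0.876), SLC36A4 (0.741) and STRIP2 (0.720). EFNB2, COG6, DLEU1 and FAM155A kept ratios above 1.5, but not all of them were called, since only 2 chr13 genes were. Without the 8% of cells with the most peak counts, the share was 2.09%, rho 0.155, the held-out ratio 1.26, the UMI ratio 1.15, the gene median 0.19 and the ratio of highest over lowest cluster 1.53. Counting each peak once per cell gave a share of 2.12% and a held-out ratio of 1.32. Peaks over 1 kb from gene starts gave 2.39% and a cluster ratio of 1.51, and leaving out the 20 chr13 peaks with the most counts gave 2.00%.

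Without deciles of peak counts, the held-out ratio was 1.36 and the gene median 0.21, with 13 chr13 genes called higher. The highest and lowest decile of cells gave 1.49, a UMI ratio of 1.25 and a gene median of 0.35, with 156 genes called lower and 25 chr13 genes called higher. Cells thinned to 1000 peak counts gave a share of 2.09%, rho 0.131, a held-out ratio of 1.25, a UMI ratio of 1.14 and a gene median of 0.18. A floor of 10 UMIs with no CPM floor called 339 genes higher and 303 lower, 14 and 2 of them on chr13. Without the 20 chr13 genes with the most UMIs, rho was 0.132. The ratio of highest over lowest cluster was 1.39 at resolution 1.0 and 1.42 without mitochondrial and ribosomal protein genes. Ranking within expression clusters gave a held-out ratio of 1.23, a UMI ratio of 1.11 and a gene median of 0.14, with 42 genes called higher and 40 lower, 4 and 0 of them on chr13. Depth limits what single cells show, at a median of 83 chr13 peak counts and 20 chr13 UMIs.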
